A study of Mus musculus with 16 samples.

Results

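The genes described here are 32 mouse genes of cholesterol handling, listed by name: 19 of synthesis, 4 that control the sterol-regulated transcription factor SREBP2, 5 of uptake and lysosomal release, and 4 of esterification and efflux. They were followed in white adipose tissue RNA on Affymetrix arrays as the probe set with the highest mean over the 16 arrays among those with 1 gene symbol. Such a probe set was found for 29 of the 32, out of 18193 genes on the arrays, and Acat2, Soat1 and Nr1h2 were not analysed here. All 29 passed the filter on low values, a log2 value of 4 or more on at least 4 arrays, which 12078 of the 18193 genes passed.

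Cells make cholesterol from acetyl-CoA through mevalonate, farnesyl diphosphate, squalene and lanosterol, or take it up in lipoproteins whose cholesterol esters are split in lysosomes. When the membrane of the endoplasmic reticulum holds little sterol, Scap carries SREBP2 to the Golgi for cleavage and the freed factor switches on the synthesis enzymes. When sterol is plentiful, Insig proteins hold Scap back, and oxysterol-activated LXR receptors switch on the exporters Abca1 and Abcg1 and the ubiquitin ligase Mylip. White adipose tissue keeps a large share of the body's free cholesterol in and around the lipid droplets of its adipocytes, and its macrophages take up and export cholesterol from dying fat cells.

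The tissue came from C57BL6/J mice in 4 groups of 4 arrays. High fat knockout mice lacked Sirt1, a protein deacetylase, through Cre recombinase under the promoter of Fatty acid binding protein 4, and ate a high fat diet. High fat wild-type mice had no Cre transgene and ate that diet. Low fat knockout mice carried the same knockout and ate a low fat diet. Low fat wild-type mice had no Cre transgene and ate the low fat diet. All were fed for 8 weeks, beginning at 4 weeks of age, and were 12 weeks old. The labels name neither the fat depot nor whether each array is another mouse, so the p-values speak to the spread among these 16 arrays, which may be technical. No group carried Cre with intact Sirt1, so the transgene and the loss of Sirt1 cannot be told apart, and the promoter is also active in macrophages.

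The deposited values were log2 expression, and a difference of 1 is a change of 2-fold. The Sirt1 probe set differed between knockout and wild-type arrays by -0.22 on the high fat and -0.19 on the low fat diet (adjusted p = 0.448 and 0.498). Whether it reads the deleted part was not tested, so the genotype labels stand unchecked. Of 10 adipocyte markers, 9 had a probe set and passed the filter. On 5 arrays the muscle gene Tnnt3 measured a log2 of 8 or more, which were replicate 4 of the high fat knockout, 3 of the high fat wild type, 2 of the low fat knockout, and 3 and 4 of the low fat wild type. The cutoff does not mark the rest as free of muscle: replicate 4 of the high fat wild type measured 7.95 and 1 of the low fat knockout 7.37. Sums of 6 muscle markers were 1627 to 3411 on high fat knockout, 2737 to 4863 on high fat wild-type, 1573 to 6634 on low fat knockout and 804 to 7899 on low fat wild-type arrays. Markers of lipid-associated macrophages moved with the groups: the summed linear level of 7 genes was 15188 to 18064 on high fat knockout, 2316 to 10156 on high fat wild-type, 1666 to 2910 on low fat knockout and 834 to 1696 on low fat wild-type arrays. All 7 rose with diet in both genotypes, while the summed level of 9 adipocyte markers was 53985 to 63761 on high fat knockout, 61514.5 to 68511.5 on high fat wild-type, 62263 to 72562 on low fat knockout and 72079 to 76759 on low fat wild-type arrays. All 6 mesothelial markers fell with diet in knockout mice and were lower in knockout than wild-type mice on the high fat diet. Their sum was 1143 to 2782 on high fat knockout, 4360 to 7671 on high fat wild-type, 4520 to 6022 on low fat knockout and 2624 to 6700 on low fat wild-type arrays. Of 10 general macrophage markers 6 rose with diet in each genotype and 4 were higher in knockout mice on the high fat and 1 on the low fat diet, with sums of 31569 to 35377 on high fat knockout, 22929 to 29798 on high fat wild-type, 20599 to 24548 on low fat knockout and 15434 to 21273 on low fat wild-type arrays. Of 5 endothelial markers 2 fell with diet in knockout mice, 1 rose in wild-type mice and 3 were lower in knockout mice on the high fat diet, with sums of 929 to 1621 on high fat knockout, 1901 to 2345 on high fat wild-type, 1764 to 2233 on low fat knockout and 1692 to 2476 on low fat wild-type arrays. The 9 adipocyte markers gave 3 falls with diet in each genotype and no rise. On the low fat diet 2 were lower in knockout mice, and on the high fat diet 1. Among all genes tested, diet called 20.5% higher and 15.2% lower in wild-type mice, and 15.6% and 13.5% in knockout mice. Genotype called 8.58% and 6.47% on the high fat diet, and 11.7% and 7.24% on the low fat diet. The part of these cell types in the results below was not tested, and in whole tissue fewer cells of a type and less RNA per cell cannot be told apart.

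In knockout mice the high fat diet was accompanied by higher transcript levels of most of the synthesis pathway. A gene was called when its limma p-value, adjusted over all 12078 genes by the Benjamini-Hochberg method, was under 0.05. Of the 18 synthesis enzymes measured, 10 rose and 2 fell, with a median difference of 0.62. Without replicate 3 of the low fat knockout 6 rose, and without the 5 arrays with muscle transcripts 6. In wild-type mice 3 of the 18 rose and 3 fell on the same diet, with a median of 0.19. Over all 29 genes, the diet in knockout mice called 12 higher and 3 lower, where 15.6% of all genes tested were called higher and 13.5% lower (29.2% in either direction). The diet in wild-type mice called 5 higher and 5 lower, beside 20.5% higher and 15.2% lower among all genes, so the share of these genes called there was near the background of 35.6%.

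Between genotypes on the high fat diet, 8 of the 29 genes were higher in knockout mice and 2 lower, beside 8.58% and 6.47% of all genes (15.1% in either direction). Of these 8, 6 were synthesis enzymes, and the median over the 18 enzymes was 0.53. On the low fat diet, 2 were higher in knockout mice and 6 lower, beside 11.7% and 7.24% (18.9%), with a synthesis median of 0.14. With arrays centred on their median, all genes tested split into 2050 higher and 2552 lower for diet in wild-type mice, against 2472 and 1832 as deposited, into 1730 and 1929 for diet in knockout mice, against 1887 and 1636, and into 1151 and 1274 for genotype on the low fat diet, against 1410 and 874. Centred, these 29 genes gave 12 higher and 3 lower calls for diet in knockout mice, 3 higher and 7 lower for diet in wild-type mice and 1 higher and 6 lower for genotype on the low fat diet. The median over all genes tested lay between -0.02 and 0.04 in these 4 comparisons. Each diet comparison shares 4 arrays with each genotype comparison, and the 2 diet comparisons share none. Without the 5 arrays with muscle transcripts, 10 genes were called for diet in wild-type mice, 10 for diet in knockout mice, 4 for genotype on the low fat diet (Cyp51, Dhcr7, Aacs and Npc1) and 3 on the high fat diet (Mvd, Nsdhl and Dhcr7). In that setting all genes gave 1650 higher and 917 lower calls for diet in wild-type mice, 1359 and 982 for diet in knockout mice, 607 and 238 for genotype on the low fat and 497 and 317 on the high fat diet.

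**Figure D1:**
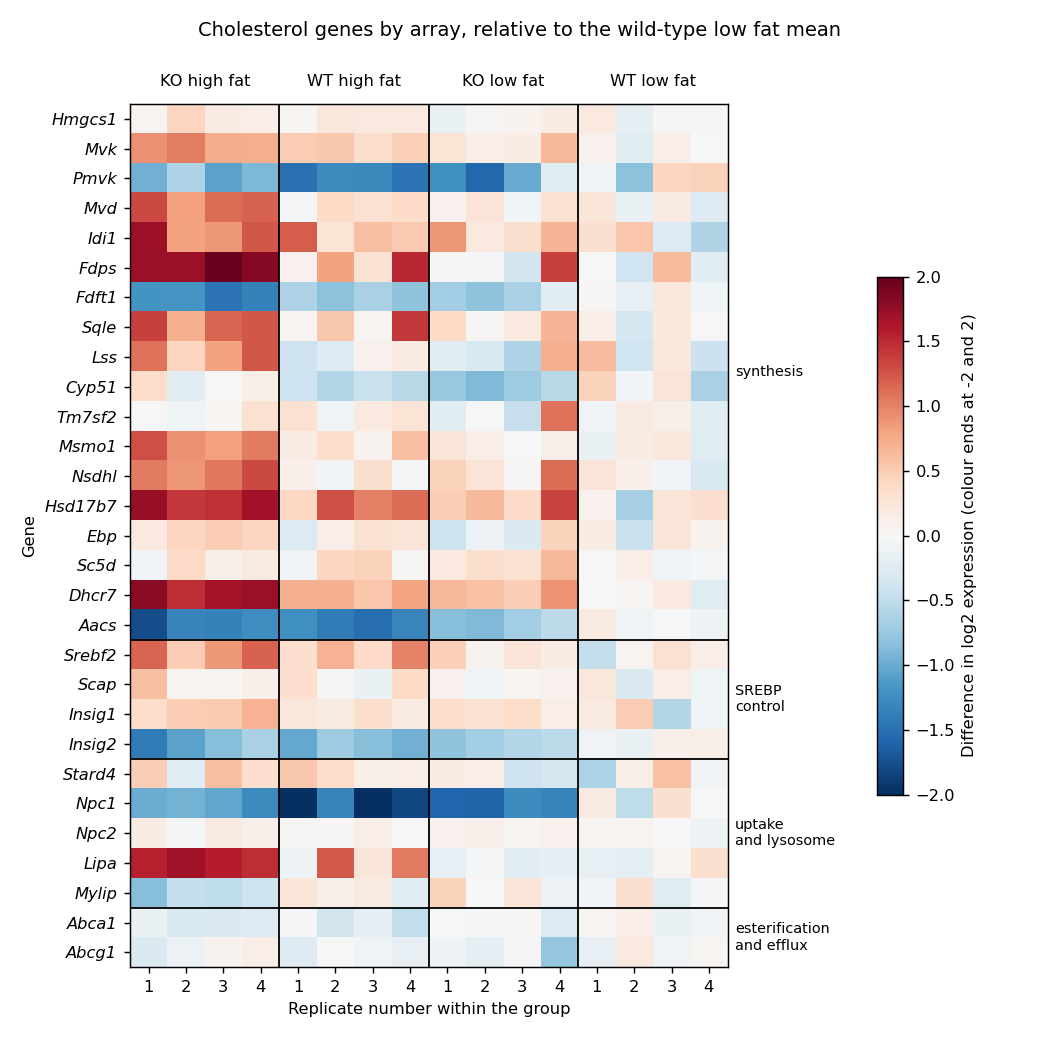
Each row is 1 of the 29 genes, grouped by role, and each column 1 of the 16 arrays, with high fat knockout arrays at the left and low fat wild-type arrays at the right; colour gives the log2 value minus the gene's mean over the low fat wild-type arrays and ends at -2 and 2. Most rows of the synthesis block are higher on the 4 high fat knockout arrays, while Fdft1 and Aacs are lower there and Npc1 is lower in every group than on low fat wild-type arrays.

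Dhcr7, the reductase of the last step to cholesterol, was the 1 gene of the 29 called higher in all 4 comparisons. It measured 11.09, 10.76, 10.95 and 11.01 on the high fat knockout arrays and 10.00, 10.00, 9.84 and 10.07 on the high fat wild-type arrays. The low fat values were 9.94, 9.88, 9.78 and 10.18 on the low fat knockout arrays and 9.29, 9.33, 9.48 and 9.05 on the low fat wild-type arrays. Every high fat knockout array was above every other array, every low fat wild-type array below every other, and the high fat wild-type and low fat knockout arrays overlapped. Dhcr7 rose with diet in knockout mice (1.01 ± 0.12, adjusted p = 1.82e-05; 2.01-fold) and in wild-type mice (0.69 ± 0.12, adjusted p = 0.000366), where each error is an SE. It was higher in knockout than wild-type mice on the high fat diet (0.98 ± 0.12, adjusted p = 0.000125) and on the low fat diet (0.66 ± 0.12, adjusted p = 0.00139). All 4 calls held under every alternative planned, and the difference of the 2 diet effects was 0.32 with a 95% interval of -0.04 to 0.67 (adjusted p = 0.225).

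The promoter of Dhcr7 is shown with those of 4 other synthesis genes because these genes changed together or set the contrast. SREBP2 works at sterol regulatory elements beside the factor NF-Y, which binds CCAAT boxes, so TCACNCCAC and CCAAT were searched on both strands in RefSeq windows of 300 bases around each listed start (GRCm38.p6). Capitals mark the matches, and a CCAAT box on the other strand reads ATTGG. Dhcr7 (chr7:143829964-143830263, plus strand) is given at 1 of its 3 listed starts, the one with most matches. Msmo1 (chr8:64733529-64733828, minus strand) and Hsd17b7 (chr1:169969156-169969455, minus strand) are further enzymes of the late pathway that rose with diet in knockout mice. Hmgcs1 (chr13:119690101-119690400, plus strand) opens the pathway and was not called on its brightest probe set, and Aacs (chr5:125475623-125475922, plus strand) fell.
Dhcr7: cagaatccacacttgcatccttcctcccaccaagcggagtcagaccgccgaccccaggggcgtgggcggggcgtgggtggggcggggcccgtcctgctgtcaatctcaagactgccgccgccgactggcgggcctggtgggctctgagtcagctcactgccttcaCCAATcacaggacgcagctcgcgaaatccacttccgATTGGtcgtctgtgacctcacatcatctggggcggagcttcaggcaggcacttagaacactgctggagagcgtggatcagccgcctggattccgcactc
Msmo1: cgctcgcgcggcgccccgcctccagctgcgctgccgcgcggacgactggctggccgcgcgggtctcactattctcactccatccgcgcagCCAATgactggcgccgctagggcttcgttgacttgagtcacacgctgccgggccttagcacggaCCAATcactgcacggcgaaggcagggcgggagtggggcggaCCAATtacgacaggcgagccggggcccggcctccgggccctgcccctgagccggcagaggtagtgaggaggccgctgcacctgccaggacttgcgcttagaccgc
Hsd17b7: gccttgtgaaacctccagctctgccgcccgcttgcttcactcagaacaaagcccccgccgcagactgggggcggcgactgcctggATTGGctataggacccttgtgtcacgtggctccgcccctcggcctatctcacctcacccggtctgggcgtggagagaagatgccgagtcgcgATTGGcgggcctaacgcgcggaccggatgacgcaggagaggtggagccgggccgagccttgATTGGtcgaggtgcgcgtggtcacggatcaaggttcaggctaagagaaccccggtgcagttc
Hmgcs1: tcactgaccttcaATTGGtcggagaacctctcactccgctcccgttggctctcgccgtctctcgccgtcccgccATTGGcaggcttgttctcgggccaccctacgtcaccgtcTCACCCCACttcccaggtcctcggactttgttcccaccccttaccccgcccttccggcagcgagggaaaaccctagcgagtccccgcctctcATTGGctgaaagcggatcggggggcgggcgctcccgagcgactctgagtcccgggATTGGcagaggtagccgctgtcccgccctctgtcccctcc
Aacs: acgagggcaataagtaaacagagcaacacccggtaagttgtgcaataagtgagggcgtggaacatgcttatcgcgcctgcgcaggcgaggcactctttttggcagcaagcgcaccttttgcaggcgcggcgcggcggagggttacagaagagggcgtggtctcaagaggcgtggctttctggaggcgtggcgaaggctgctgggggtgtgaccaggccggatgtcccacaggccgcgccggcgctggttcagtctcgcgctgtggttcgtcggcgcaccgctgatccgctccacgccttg

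Windows on chr18 were left out of the search, so a gene there has none. Among the windows searched, 32 belonged to 26 of the 32 genes, and none to Fdps, Fdft1, Sqle, Stard4, Npc1 and Abcg1. A CCAAT box lay in a window of 14 of 16 synthesis genes and 7 of 10 other genes of the list. Counted by window, that was 73.7% for synthesis genes, 53.8% for the others and 37.4% over all 32851 windows searched. Aacs and Acat2 were the synthesis genes without a box. The stricter TCACNCCAC was found in 1.24% of all windows and, of these genes, in that of Hmgcs1. An LXR element, written as a pair of AGGTCA letters spaced by 4 bases, was found in 0 of the 32 windows and in 5 of all 32851. These are matches of letters in these windows and say nothing of binding.

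**Figure D2:**
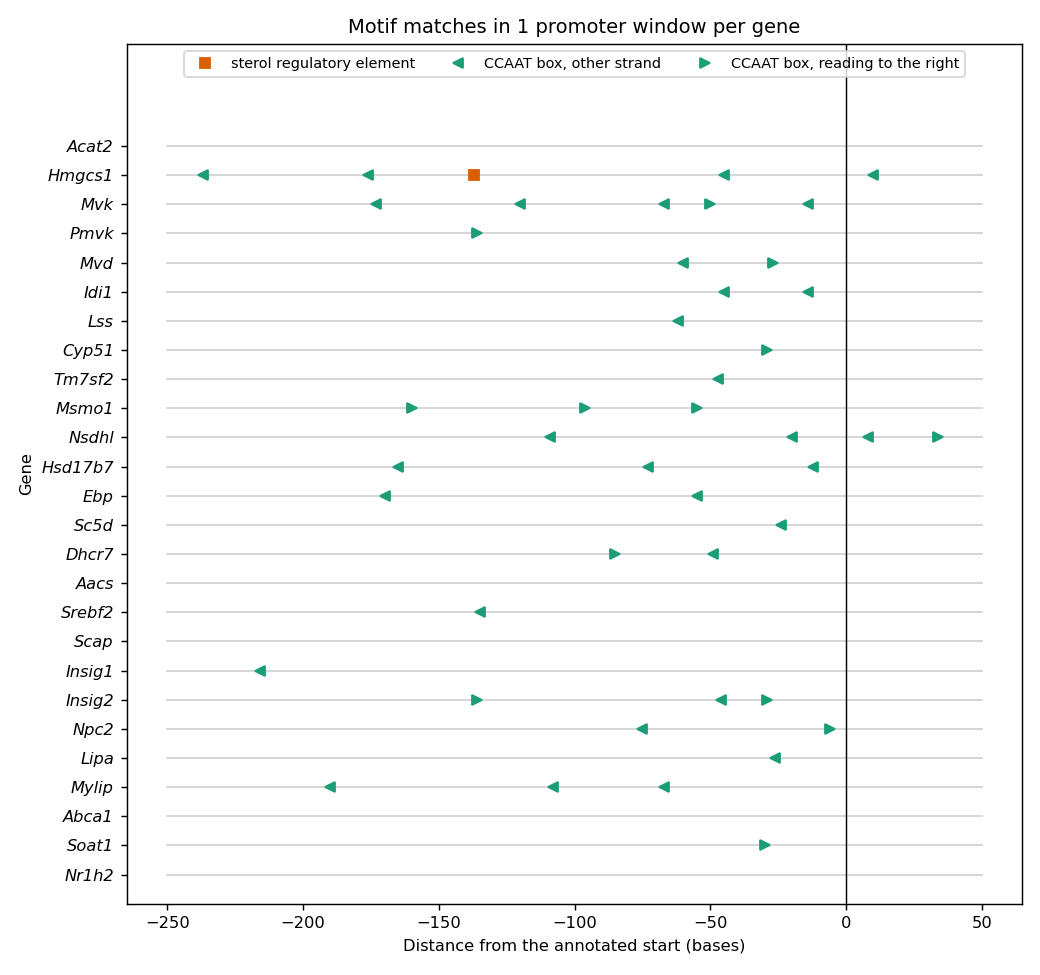
Each row is 1 promoter window per gene, for the 26 genes with a window searched, drawn by distance in bases from the listed start. Triangles are CCAAT boxes, pointing right on the gene's own strand and left on the other, and the square is the TCACNCCAC match. Dhcr7 has boxes at -85 and -49, Msmo1 at -160, -96 and -55, and Aacs none.

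Of the 7 other enzymes between lanosterol and cholesterol, Cyp51, Msmo1, Nsdhl and Hsd17b7 rose with diet in knockout mice. Msmo1, which oxidises the methyl groups of lanosterol products, averaged 9.83 ± 0.21 on high fat knockout and 8.94 ± 0.10 on low fat knockout arrays (SD, n = 4 each). It rose with diet in knockout mice by 0.89 ± 0.14, adjusted p = 0.000282, and was higher than in wild-type mice on the high fat diet by 0.72 ± 0.14, adjusted p = 0.00361, where a second probe set gave 0.20 (adjusted p = 0.565). Nsdhl, which removes the oxidised groups, measured 9.25, 9.10, 9.27 and 9.54 on high fat knockout arrays, against 8.31, 8.16, 8.53 and 8.17 on high fat wild-type arrays, with no overlap. It was higher in the knockout by 1.00 ± 0.19, adjusted p = 0.00307, and this call held under every alternative planned. Its diet call in knockout mice (0.61 ± 0.19, adjusted p = 0.027) was lost without any 1 of 6 arrays, replicates 1, 3 and 4 of the high fat and 1, 2 and 3 of the low fat knockout. Hsd17b7, the ketoreductase of the same complex, rose with diet in both genotypes, by 0.86 in knockout (adjusted p = 0.0144) and 0.96 in wild-type mice (adjusted p = 0.00598), the knockout call being lost without replicate 3 of the low fat knockout (0.75, adjusted p = 0.0522). Its difference between genotypes on the low fat diet (0.72 ± 0.24, adjusted p = 0.0498) just passed. That call was lost when any of 13 arrays was left out. The exceptions were replicate 4 of the low fat wild type, 3 of the low fat knockout and 1 of the high fat wild type. The other Hsd17b7 probe sets averaged 3.08, 2.91 and 2.42 over all arrays and did not pass the filter, so none checks these readings.

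Cyp51, the lanosterol demethylase, had diet effects that differed between the genotypes. It measured 9.86, 9.28, 9.49 and 9.61 on the high fat knockout arrays and 9.09, 8.91, 9.06 and 8.94 on the high fat wild-type arrays. Low fat diet values were 8.74, 8.61, 8.79 and 8.95 on the low fat knockout arrays and 9.94, 9.45, 9.76 and 8.85 on the low fat wild-type arrays. High fat knockout arrays lay above both the high fat wild-type and the low fat knockout arrays, and overlapped the low fat wild-type arrays, of which replicate 4 at 8.85 was far under the other 3. Cyp51 rose with diet in knockout mice by 0.79 ± 0.19, adjusted p = 0.00532, while the difference in wild-type mice was -0.50 (adjusted p = 0.0504). The test of the difference between the diet effects gave 1.29 ± 0.27, adjusted p = 0.00606, held under every alternative planned, and was also called by its second probe set (1.03, adjusted p = 0.0449). That probe set gave 0.48 for diet in knockout mice (adjusted p = 0.123) and -0.61 for genotype on the low fat diet (adjusted p = 0.0676). On the low fat diet it was lower in knockout mice by a log2 difference of -0.73 ± 0.19, adjusted p = 0.0144, a call lost without replicate 1 of the low fat wild type (-0.58, adjusted p = 0.0521). The difference with diet in wild-type mice passed without replicate 4 of the low fat wild type (-0.72, adjusted p = 0.002).

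Lss and Sqle rose with diet in knockout mice, with calls that single arrays decided. Lss, which closes squalene epoxide into lanosterol, was higher in high fat knockout mice than in high fat wild-type mice by 0.99 ± 0.28, adjusted p = 0.0272, and than in low fat knockout mice by 0.99 ± 0.28, adjusted p = 0.0154. The call between genotypes was lost without replicate 1 (0.89, adjusted p = 0.0809) or 2 (0.94, adjusted p = 0.0614) of the high fat wild type, or replicate 1 (0.93, adjusted p = 0.0827) or 4 (0.87, adjusted p = 0.0796) of the high fat knockout. The diet call for Lss was lost without replicate 3 of the low fat knockout (0.82, adjusted p = 0.059) or 4 of the high fat knockout (0.87, adjusted p = 0.0505), and of 2 other probe sets 1 was called (0.86, adjusted p = 0.0182) and 1 gave 0.14 (adjusted p = 0.659). Sqle, the squalene epoxidase, rose with diet in knockout mice by 0.80 ± 0.26, adjusted p = 0.0289, a call lost without any 1 of 5 arrays, replicates 2 and 3 of the low fat and 1, 3 and 4 of the high fat knockout. The isomerase Ebp had differences of 0.49 for diet in knockout mice (adjusted p = 0.0664) and 0.28 between genotypes on the high fat diet (adjusted p = 0.348). The reductase Tm7sf2 lay within -0.11 to 0.17 in the 4 comparisons.

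Sc5d, the desaturase just before Dhcr7, depended on the probe set read. The brightest gave -0.22 for diet in knockout mice and 0.21 in wild-type mice, with adjusted p of 0.272 and 0.266. Of 2 dimmer ones, 1 was not called and the other gave 0.77 and 0.98 with adjusted p of 0.00656 and 0.000919, and was also higher in knockout mice on both diets. Other probe sets were examined after the values were seen, in a fit over all 25560 probe sets that passed the filter.

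At the start of the pathway Mvk rose with diet, while Hmgcs1 and Idi1 were not called on their brightest probe sets. Hmgcs1, which makes HMG-CoA in the cytosol, lay between 12.41 and 13.02 on every array, with differences of 0.03 to 0.17 in the 4 comparisons and none called. Of 4 other Hmgcs1 probe sets, 1 was higher with diet in wild-type mice (0.53, adjusted p = 0.0139) and in knockout mice on the low fat diet (0.48, adjusted p = 0.0416), and 3 were not called. Mvk, mevalonate kinase, averaged 6.90 ± 0.14 on high fat knockout, 6.52 ± 0.08 on high fat wild-type, 6.35 ± 0.24 on low fat knockout and 6.05 ± 0.16 on low fat wild-type arrays (SD, n = 4 each). It rose with diet in knockout mice by 0.55 and in wild-type mice by 0.47 (adjusted p = 0.00414 and 0.00905). Idi1, the isopentenyl diphosphate isomerase, had diet differences of 0.64 in knockout and 0.65 in wild-type mice that did not pass (adjusted p = 0.0902 and 0.072). Its second probe set was called for diet in both genotypes (0.59, adjusted p = 0.0164 in knockout and 0.55, adjusted p = 0.0188 in wild-type mice).

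Mvd, the mevalonate diphosphate decarboxylase, was higher on high fat knockout arrays. It measured 5.71, 5.22, 5.51 and 5.57 on the high fat knockout arrays and 4.36, 4.79, 4.70 and 4.77 on the high fat wild-type arrays. Values on the low fat diet were 4.48, 4.64, 4.34 and 4.70 on the low fat knockout arrays and 4.63, 4.26, 4.56 and 4.13 on the low fat wild-type arrays. The 4 high fat knockout arrays lay above the other 12, which overlapped and were close to the filter's low value. Mvd rose with diet in knockout mice by 0.96 ± 0.15, adjusted p = 0.000153, and was higher in knockout than wild-type mice on the high fat diet by 0.85 ± 0.15, adjusted p = 0.00139. Fdps, the farnesyl diphosphate synthase, rose with diet in knockout mice by 1.58 ± 0.35, adjusted p = 0.00283, the largest difference of any synthesis enzyme in the 4 comparisons. Its call between genotypes on the high fat diet (1.16 ± 0.35, adjusted p = 0.0345) was lost without any 1 of 7 of the 8 arrays compared, all but replicate 4 of the high fat wild type, with adjusted p up to 0.106. It was also lost with the mean of its probe sets (0.50, adjusted p = 0.11). The other Fdps probe set in that mean averaged 1.49 and did not pass the filter, which lowers the mean difference.

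Pmvk, the phosphomevalonate kinase, fell with diet in wild-type mice and not by test in knockout mice. It measured 9.36, 9.70, 9.25 and 9.43 on the high fat knockout arrays and 8.84, 9.05, 9.03 and 8.84 on the high fat wild-type arrays. With low fat feeding, it measured 9.10, 8.75, 9.32 and 10.07 on the low fat knockout arrays and 10.25, 9.50, 10.76 and 10.79 on the low fat wild-type arrays. The low fat wild-type arrays were high and spread over more than 1 log2 unit, above every high fat array except that replicate 2 lay between high fat knockout arrays. The difference was -1.38 ± 0.27, adjusted p = 0.00107 for diet in wild-type mice and 0.13 ± 0.27, adjusted p = 0.766 in knockout mice, and the diet effects differed by 1.51 ± 0.39, adjusted p = 0.0186. On the low fat diet Pmvk was lower in knockout mice by a log2 difference of -1.01 ± 0.27, adjusted p = 0.0172. Replicates 3 and 4 of the low fat wild type, its highest arrays, also held muscle transcripts. Without all 5 such arrays the genotype difference was -0.38 (adjusted p = 0.501) and that of the diet effects 0.91 (adjusted p = 0.242). Leaving out replicate 3 (adjusted p = 0.0513) or 4 (adjusted p = 0.0504) of the low fat wild type, or 1 (adjusted p = 0.0558) or 2 (adjusted p = 0.0632) of the low fat knockout, ended the Pmvk call between genotypes.

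Aacs and Fdft1 fell with diet in both genotypes. Aacs, the synthetase that turns the ketone body acetoacetate into acetoacetyl-CoA for lipid synthesis, measured 7.61, 8.05, 8.04 and 8.14 on the high fat knockout arrays and 8.16, 7.99, 7.88 and 8.07 on the high fat wild-type arrays. In low fat tissue it measured 8.53, 8.50, 8.69 and 8.86 on the low fat knockout arrays and 9.57, 9.30, 9.38 and 9.29 on the low fat wild-type arrays. The low fat wild-type arrays were above the low fat knockout arrays, these above all high fat arrays, and the high fat arrays of the 2 genotypes overlapped. Aacs fell with diet in wild-type mice by a log2 difference of -1.36 ± 0.13, adjusted p = 2.45e-06, and in knockout mice by a log2 difference of -0.68 ± 0.13, adjusted p = 0.000942. It was lower in knockout than wild-type mice on the low fat diet by a log2 difference of -0.74 ± 0.13, adjusted p = 0.00107, and on the high fat diet the difference was -0.06 with a 95% interval of -0.33 to 0.21. The diet effects differed by 0.68 ± 0.18, adjusted p = 0.0233, a call lost without replicate 1 (adjusted p = 0.0513) or 2 (adjusted p = 0.0514) of the low fat knockout or 3 of the high fat wild type (adjusted p = 0.0538).

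Fdft1, squalene synthase, which commits farnesyl diphosphate to sterols, was lower in all 4 comparisons. It averaged 9.80 ± 0.14 on high fat knockout, 10.38 ± 0.11 on high fat wild-type, 10.51 ± 0.26 on low fat knockout and 11.10 ± 0.17 on low fat wild-type arrays (SD, n = 4 each). The differences were -0.71 and -0.72 with diet in knockout and wild-type mice, and -0.58 and -0.59 between genotypes on the high and low fat diets. Their adjusted p ran up to 0.008. Its neighbours in the pathway, Fdps before it and Sqle after it, had positive differences in all 4 comparisons, not all called. Fdps was called for diet in knockout mice and for genotype on the high fat diet, and Sqle for diet in knockout mice.

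**Figure D3:**
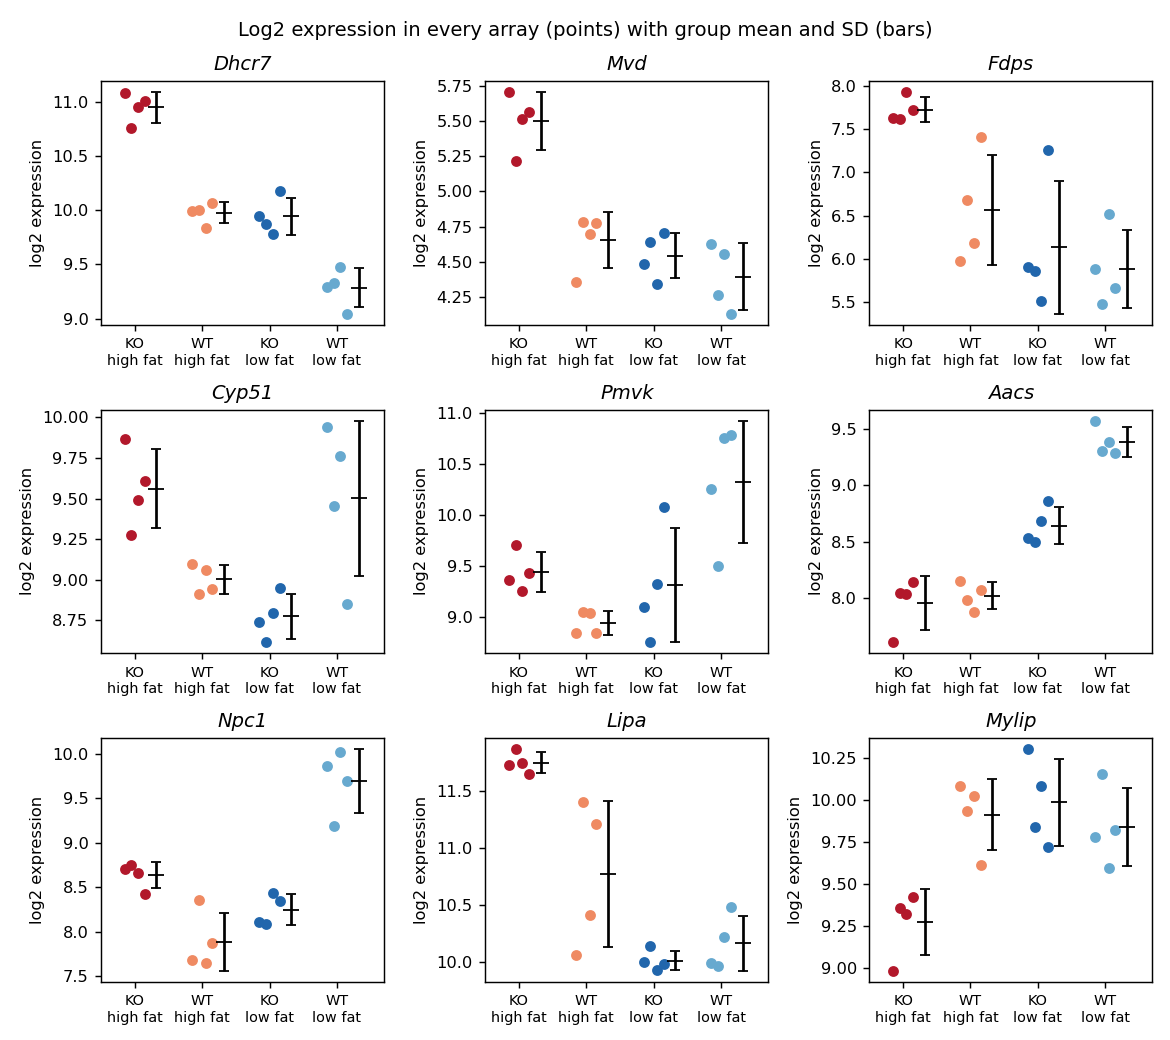
Each panel shows 1 gene; points are single arrays by group, high fat knockout at the left to low fat wild type at the right, the y axis is the log2 expression value and the bars give the mean and SD of 4 arrays. Dhcr7 is highest on the high fat knockout arrays, Npc1 and Aacs are highest on the low fat wild-type arrays, and Lipa lies between 11.64 and 11.86 on high fat knockout arrays.

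Of the 4 genes that control SREBP2, Srebf2 and Insig2 changed with diet and Scap and Insig1 were not called in any comparison. Srebf2, the gene of SREBP2 itself, measured 8.19, 7.54, 7.89 and 8.21 on the high fat knockout arrays and 7.36, 7.71, 7.40 and 8.02 on the high fat wild-type arrays. The low fat values were 7.51, 7.10, 7.29 and 7.18 on the low fat knockout arrays and 6.54, 7.08, 7.33 and 7.15 on the low fat wild-type arrays. High fat arrays lay above the low fat arrays of the same genotype, with overlap between genotypes on each diet. Srebf2 rose with diet in knockout mice by 0.69 ± 0.19, adjusted p = 0.0146, and in wild-type mice by 0.60 ± 0.19, adjusted p = 0.0248. The wild-type call was lost without replicate 1 of the low fat wild type (0.44, adjusted p = 0.0887) or 2 (0.57, adjusted p = 0.0602) or 4 (0.47, adjusted p = 0.0845) of the high fat wild type, and with arrays centred on their median (0.51, adjusted p = 0.06). The knockout call for Srebf2 was lost without replicate 1 of the high fat knockout (0.61, adjusted p = 0.0501).

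Insig2 fell with diet in wild-type mice, and Insig1 did not change by test. Insig2, which retains Scap and in liver is not driven by SREBP2 as Insig1 is, measured 9.22, 9.56, 9.77 and 9.98 on the high fat knockout arrays and 9.60, 9.91, 9.76 and 9.65 on the high fat wild-type arrays. Low fat diet values were 9.82, 9.94, 10.04 and 10.08 on the low fat knockout arrays and 10.55, 10.47, 10.73 and 10.73 on the low fat wild-type arrays. All low fat wild-type arrays were above all others, and the other 3 groups overlapped in part. The difference was -0.89 ± 0.14, adjusted p = 0.000192 for diet in wild-type mice, -0.34 ± 0.14, adjusted p = 0.0853 in knockout mice, and -0.65 ± 0.14, adjusted p = 0.00481 between genotypes on the low fat diet. Of 2 other Insig2 probe sets, 1 was called in those 3 comparisons, and the other gave -0.48 for diet in wild-type mice (adjusted p = 0.0564) and -0.23 between genotypes on the low fat diet (adjusted p = 0.427). Insig1, a target of SREBP2 that closes the feedback loop, measured 12.75, 12.91, 12.92 and 13.08 on the high fat knockout arrays and 12.62, 12.57, 12.74 and 12.57 on the high fat wild-type arrays. Values on the low fat diet were 12.75, 12.69, 12.76 and 12.53 on the low fat knockout arrays and 12.57, 12.89, 11.81 and 12.31 on the low fat wild-type arrays. Its differences were 0.23 with diet in both genotypes and 0.29 between genotypes on both diets, with adjusted p from 0.256 to 0.328. Without replicate 2 of the low fat wild type, at 12.89, Insig1 was called for diet in wild-type mice (0.40, adjusted p = 0.0468) and for genotype on the low fat diet (0.46, adjusted p = 0.037).

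Among the uptake and lysosomal genes, Npc1 had the largest difference of all 29 genes in the 4 comparisons. Npc1, the membrane protein that hands cholesterol out of late endosomes and lysosomes, measured 8.71, 8.75, 8.66 and 8.42 on the high fat knockout arrays and 7.68, 8.36, 7.65 and 7.88 on the high fat wild-type arrays. With low fat feeding, it measured 8.11, 8.09, 8.44 and 8.35 on the low fat knockout arrays and 9.87, 9.19, 10.02 and 9.70 on the low fat wild-type arrays. Every low fat wild-type array was above every other array. High fat knockout arrays lay above high fat wild-type arrays, and all but replicate 4 above the low fat knockout arrays. Npc1 was lower with diet in wild-type mice by a log2 difference of -1.80 ± 0.18, adjusted p = 4.1e-06, a 3.49-fold lower level, while in knockout mice the difference was 0.39 ± 0.18, adjusted p = 0.122. It was lower in knockout than wild-type mice on the low fat diet (-1.45 ± 0.18, adjusted p = 6.52e-05) and higher on the high fat diet (0.74 ± 0.18, adjusted p = 0.0114). The diet effects differed by 2.19 ± 0.26, adjusted p = 0.000133, and over 27 alternatives the adjusted p of that difference stayed at or under 0.00998. The genotype call on the high fat diet was lost when the 5 arrays that held muscle transcripts were left out (adjusted p = 0.0623). Npc1 had 1 probe set, so no second one checks it.

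Npc2, the soluble partner that passes cholesterol to Npc1 in the lysosome, did not show this on its brightest probe set. It lay between 12.95 and 13.23 on all arrays, with differences of 0.02 to 0.08 and none called. Of 2 other Npc2 probe sets that passed the filter, 1 was not called and the dimmer was called higher in all 4 comparisons, by 1.29 and 0.89 with diet in knockout and wild-type mice and by 1.01 and 0.61 between genotypes on the high and low fat diets.

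Lipa, the lysosomal acid lipase that splits cholesterol esters and triglycerides, was highest in high fat knockout mice. It measured 11.73, 11.86, 11.74 and 11.64 on the high fat knockout arrays and 10.07, 11.40, 10.41 and 11.21 on the high fat wild-type arrays. In low fat tissue it measured 10.00, 10.14, 9.94 and 9.99 on the low fat knockout arrays and 10.00, 9.97, 10.22 and 10.48 on the low fat wild-type arrays. High fat knockout arrays were above all others, the high fat wild-type arrays spread from 10.07 to 11.40, and the low fat groups overlapped. Lipa rose with diet in knockout mice by 1.73 ± 0.23, adjusted p = 3.88e-05 (3.31-fold), and was higher in knockout than wild-type mice on the high fat diet by 0.97 ± 0.23, adjusted p = 0.00882. The diet difference in wild-type mice (0.61 ± 0.23, adjusted p = 0.0467) was lost without any 1 of 13 arrays, all but replicate 4 of the low fat wild type and 1 and 3 of the high fat wild type. The diet effects differed by 1.12 ± 0.32, adjusted p = 0.0307, which was lost without any 1 of 8 arrays, replicates 1, 2 and 3 of the high fat knockout, 3 of the high fat wild type, 1 and 3 of the low fat knockout and 3 and 4 of the low fat wild type. The lipid-associated macrophage sum was 2316 to 10156 on high fat wild-type arrays and above all others on high fat knockout arrays. On the low fat diet that sum was 1666 to 2910 on knockout and 834 to 1696 on wild-type arrays. The Lipa difference between genotypes there was -0.15 (adjusted p = 0.678). Whether Lipa goes with that sum was not tested.

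Mylip, a ubiquitin ligase that LXR receptors switch on and that limits lipoprotein uptake, fell in high fat knockout mice. It measured 8.99, 9.36, 9.33 and 9.43 on the high fat knockout arrays and 10.09, 9.94, 10.03 and 9.62 on the high fat wild-type arrays. The low fat values were 10.31, 9.84, 10.09 and 9.72 on the low fat knockout arrays and 9.78, 10.16, 9.60 and 9.82 on the low fat wild-type arrays. The 4 high fat knockout arrays lay below the other 12, whose groups overlapped. The difference was -0.71 ± 0.16, adjusted p = 0.00303 for diet in knockout mice and -0.64 ± 0.16, adjusted p = 0.0125 between genotypes on the high fat diet, a call lost without replicate 1 of the high fat knockout (-0.54, adjusted p = 0.0504). In wild-type mice the diet difference was 0.07, and the diet effects differed by -0.79 ± 0.22, adjusted p = 0.0303, which was lost without any 1 of 7 arrays, replicate 1 of the high fat knockout and 1 and 3 of each other group. Stard4, a cytosolic sterol carrier, was not called in any comparison on its brightest probe set. A second Stard4 probe set was higher with diet in knockout mice (0.49, adjusted p = 0.00905) and lower in knockout mice on the low fat diet (-0.48, adjusted p = 0.0161).

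**Figure D4:**
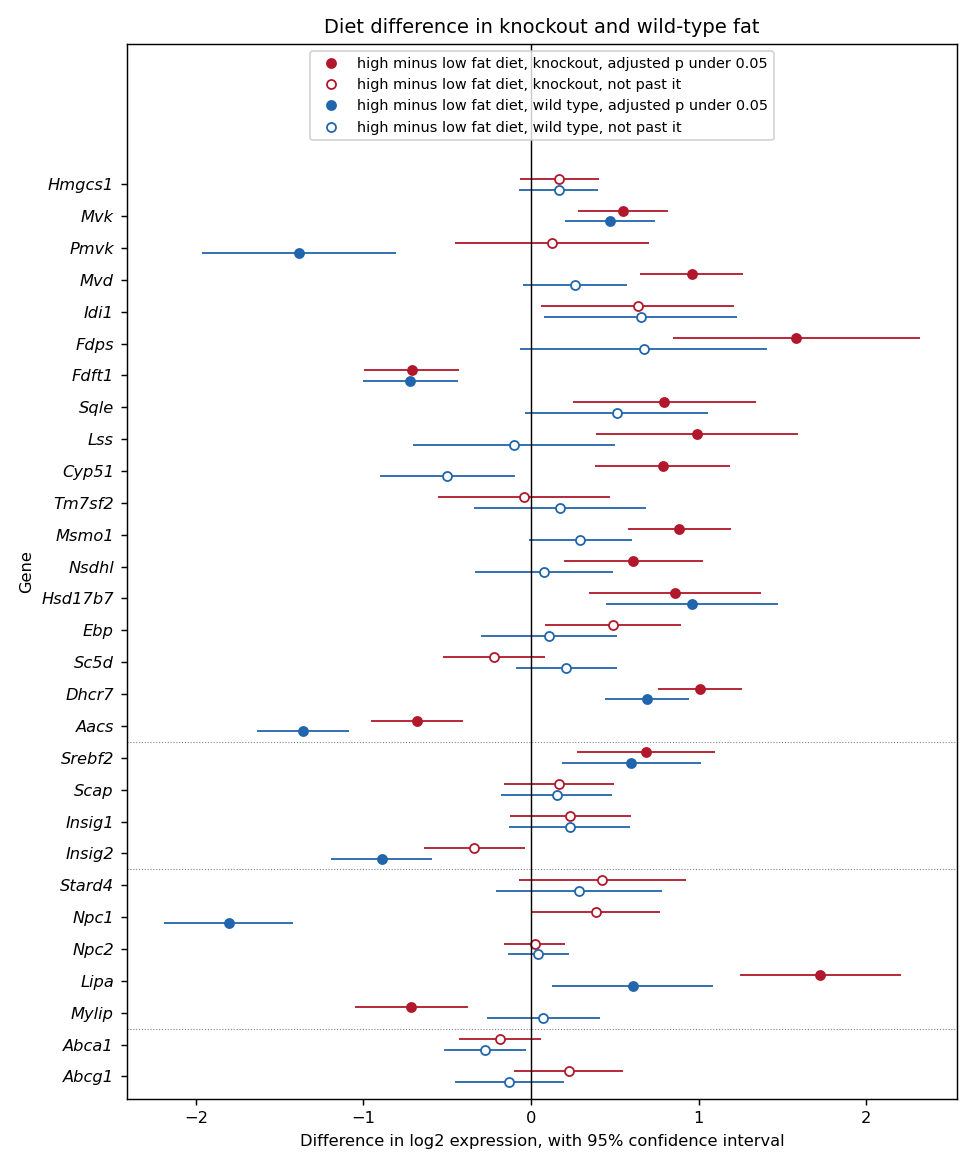
Each row is 1 of the 29 genes, grouped by role; points give the high fat minus low fat difference in log2 expression in knockout (red) and wild-type (blue) fat, lines the 95% confidence interval, and filled points an adjusted p under 0.05. The 2 differences share no arrays. Npc1 lies at 0.39 in knockout and -1.80 in wild-type mice, Lipa at 1.73 and 0.61, and Mylip at -0.71 and 0.07.

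The exporters gave different readings by probe set. Abca1, which moves cholesterol onto lipid-poor apolipoproteins, averaged 11.94 ± 0.07 on high fat knockout, 11.91 ± 0.20 on high fat wild-type, 12.12 ± 0.14 on low fat knockout and 12.19 ± 0.12 on low fat wild-type arrays by its brightest probe set (SD, n = 4 each). Its largest difference there was -0.28 ± 0.12, adjusted p = 0.073, for diet in wild-type mice, and none was called. Of 2 dimmer Abca1 probe sets, both were called lower with diet in wild-type mice (-1.70 and -1.76) and in knockout mice (-1.13 and -0.73), and lower in knockout mice on the low fat diet (-0.85 and -0.91).

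Abcg1, which exports cholesterol to high density lipoprotein, was likewise not called by its brightest probe set, whose differences ran from -0.27 to 0.23. A dimmer Abcg1 probe set measured 7.08, 6.55, 6.63 and 6.25 on the high fat knockout arrays and 5.16, 5.71, 5.19 and 5.39 on the high fat wild-type arrays. On the low fat diet it measured 5.98, 5.49, 5.88 and 5.33 on the low fat knockout arrays and 6.59, 6.24, 6.91 and 6.81 on the low fat wild-type arrays. The genotypes did not overlap on either diet, with knockout arrays high on the high fat diet and low on the low fat diet. By this probe set the diet difference was 0.96 in knockout mice and -1.28 in wild-type mice, and these differed by 2.23 (adjusted p = 0.000245), with the same sign as for Npc1.

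**Figure D5:**
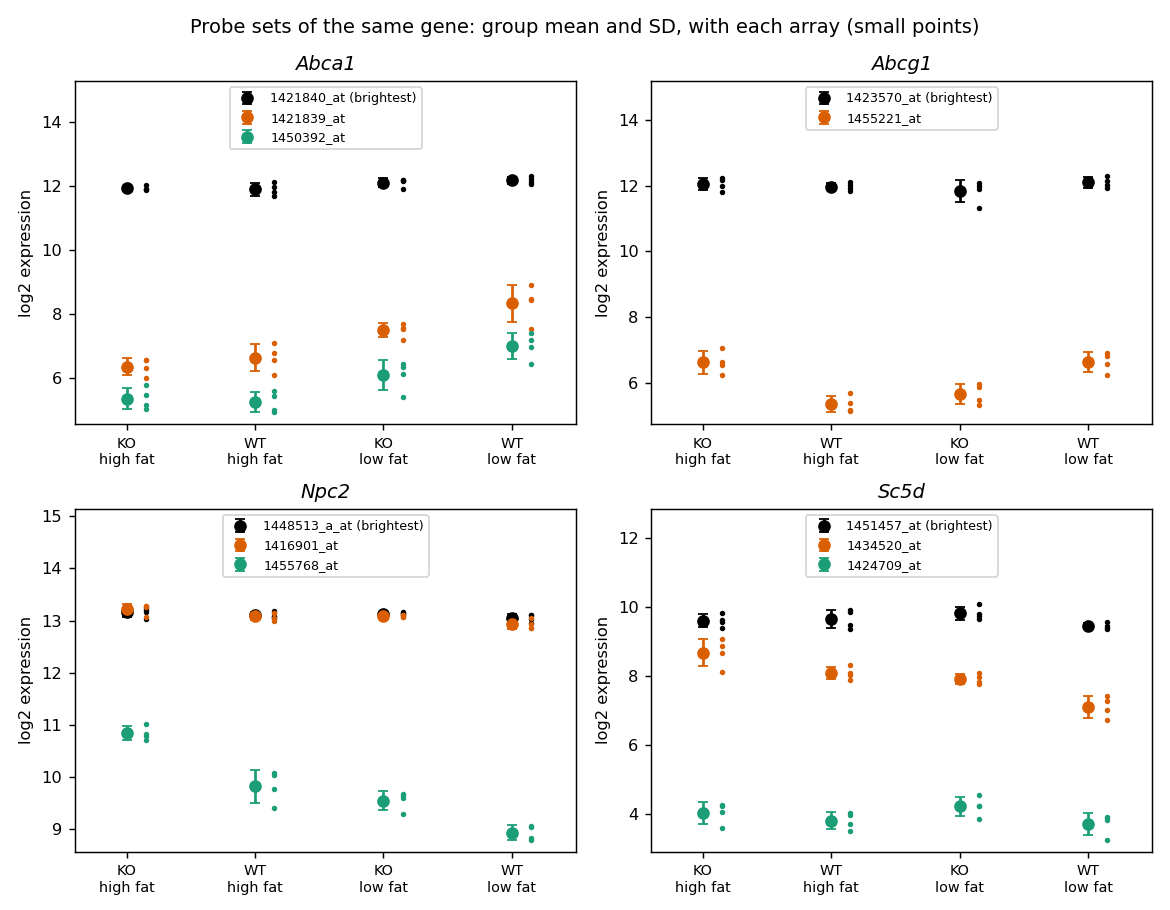
Each panel shows the probe sets of 1 gene by group, with log2 expression on the y axis, large points and bars for the mean and SD of 4 arrays and small points for single arrays; black is the brightest probe set. For Abca1, Abcg1, Npc2 and Sc5d the black points differ little between the groups while a dimmer probe set differs between them, such as Npc2 at 10.84 in high fat knockout and 8.94 in low fat wild-type fat.

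Synthesis was set against the 7 uptake, lysosomal and efflux genes, which include Mylip, a limiter of uptake, and no lipoprotein receptor. For diet in knockout mice the median difference was 0.62 over the 18 synthesis genes and 0.23 over the 7, with 10 of 18 and 1 of 7 called higher. For genotype on the high fat diet the medians were 0.53 and 0.06, with 6 of 18 and 2 of 7 higher. For diet in wild-type mice they were 0.19 and 0.04, and for genotype on the low fat diet 0.14 and -0.12. These medians and counts rest on the brightest probe sets. For diet in knockout mice dimmer ones gave 1.29 and 0.13 for Npc2, 0.96 for Abcg1, and -1.13 and -0.73 for Abca1. Among synthesis genes, dimmer ones gave 0.77 and -0.19 for Sc5d and 0.86 and 0.14 for Lss. The mean of the 18 synthesis genes was 8.83, 8.69, 8.73 and 8.85 on the high fat knockout arrays and 8.19, 8.31, 8.29 and 8.44 on the high fat wild-type arrays. On the low fat diet it was 8.20, 8.13, 8.08 and 8.72 on the low fat knockout arrays and 8.38, 8.09, 8.40 and 8.10 on the low fat wild-type arrays. High fat knockout arrays thus lay above high fat wild-type arrays in this mean, and replicate 4 of the low fat knockout stood with them, apart from its group.

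The test of the difference between the diet effects called 7 of the 29 genes, beside 13.0% of all genes tested. The diet effect, not the level, was more positive in knockout than wild-type mice for Pmvk, Mvd, Cyp51, Aacs, Npc1 and Lipa, beside 5.12% of all genes. It was more negative for Mylip, beside 7.87%. The median difference of diet effects was 0.35 over the synthesis genes and -0.01 over all genes, of which 618 were called higher and 951 lower, or 853 and 868 with arrays centred. For Pmvk, Aacs and Npc1 the values came mostly from a fall in wild-type mice, and for Mvd, Lipa and Mylip from a change in knockout mice. Leaving out 1 array gave 3 calls at the fewest, without replicate 1 of the low fat knockout or 3 of the high fat wild type, and 10 at the most, without replicate 4 of the low fat knockout. Without the 5 arrays with muscle transcripts Cyp51 and Npc1 were called, and 106 of all genes higher and 318 lower. The Mvd call was lost without any 1 of 10 arrays, all but replicate 2 of the high fat knockout, 2 and 4 of the high fat wild type, 4 of the low fat knockout and 2 and 4 of the low fat wild type, and a second Mvd probe set gave 0.29 (adjusted p = 0.345).

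Of the other genes of the pathway, which include receptors, sterol transporters and further regulators, 25 were tested, and Gramd1c, Ch25h and Abcg4 did not pass the filter. Diet in knockout mice called 3 higher and 5 lower, and diet in wild-type mice 6 higher and 6 lower. On the high fat diet 3 were higher and 2 lower in knockout mice, and on the low fat diet 3 were higher and 2 lower. The shares called among all genes in these comparisons were 29.2%, 35.6%, 15.1% and 18.9%. Nceh1, a hydrolase of cholesterol esters that macrophages use, rose with diet in knockout mice by 1.89 ± 0.26, adjusted p = 5.23e-05, and in wild-type mice by 1.11 ± 0.26, adjusted p = 0.00327. Stard3, which tethers late endosomes to other membranes and binds cholesterol, was higher in high fat knockout mice than in high fat wild-type mice by 0.86 ± 0.13, adjusted p = 0.000515.

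Gramd1b, which carries plasma membrane cholesterol to the endoplasmic reticulum, averaged 8.11 ± 0.14 on high fat knockout, 6.69 ± 0.16 on high fat wild-type, 7.53 ± 0.56 on low fat knockout and 7.96 ± 0.79 on low fat wild-type arrays (SD, n = 4 each). Its diet effects differed by 1.86 ± 0.44, adjusted p = 0.0134. Nr1h3, the LXR alpha receptor, had diet differences of 0.21 in knockout and -0.69 in wild-type mice, which differed by 0.90 ± 0.27, adjusted p = 0.0399. Lrp1, an endocytic receptor for lipoprotein remnants, rose with diet in knockout mice (0.36) and fell in wild-type mice (-0.39), and these differed by 0.75 ± 0.17, adjusted p = 0.00895. Srebf1, the gene of the related factor that drives fatty acid synthesis, fell with diet in both genotypes, by a log2 difference of -0.63 in knockout and -0.59 in wild-type mice. Cyp27a1, which makes an oxysterol, and Abca5, a lysosomal transporter, were lower in knockout than wild-type mice on the high fat diet (-0.53 and -1.36). The test of the difference between diet effects called 4 of the 25 genes more positive in knockout mice and 2 more negative. Among all genes these shares were 5.12% and 7.87%. Stard3 (0.87, adjusted p = 0.00579) was also among the 4. Cyp27a1 (-0.75, adjusted p = 0.00999) and Rnf145 (-0.65, adjusted p = 0.0168) were the 2. The Vldlr receptor was higher in knockout than wild-type mice on the low fat diet by 0.45 ± 0.11, adjusted p = 0.0106.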

How the data were processed

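White adipose tissue RNA of 16 samples, 4 in each of 4 groups set by genotype and diet in the labels, was measured on 1-colour Affymetrix arrays. The authors deposited 1 log2 value for each probe set and array. Per the submitters' processing notes, GCRMA 2.20.0 and R 2.11.1 were used. Any filter or batch step was not given in the sources used here. Of 45037 probe sets, 34945 carried 1 symbol, 932 several and 9160 none. Array medians ran from 4.34 to 4.46, and the number of arrays limits the precision.

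A gene was read from its brightest probe set with 1 symbol. One mean per group was fitted to all 16 arrays with limma 3.58.1 in R 4.3.3 (12 residual and 3.84 prior degrees of freedom, two-sided), after tests on simulated data. P-values were adjusted by the Benjamini-Hochberg method over 12078 genes.

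The genes, roles, motifs and lists were chosen with earlier results of these data known. Values by array are given for Dhcr7, Npc1, Insig1, up to 2 called genes of each role with the smallest p in each comparison of 2 groups, and genes whose diet effects differed. The other pathway genes named, the second probe sets and the Abcg1 values by array were chosen after their values were seen. The labels do not say that replicate numbers pair arrays. Over 24 same-numbered pairs, deviations from group means correlated from -0.321 to 0.199, with 5 over 0.1. This range was not set against that of differently numbered pairs, so it cannot decide whether arrays were paired.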

Additional observations from a re-analysis of the deposited data

Results flagged for a closer look

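Of 116 groups of 4 values, 2 held an array far from the other 3 by Dixon's test at the 95% level, fewer than the 1 in 20 that chance gives. Scap measured 9.44 on replicate 1 of the high fat knockout, against 8.89 to 8.94 on the others. Abca1 measured 11.91 on replicate 4 of the low fat knockout, against 12.17 to 12.21.

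The high fat diet effect differed by test between knockout and wild-type mice for 7 genes. The difference was 1.51 for Pmvk (adjusted p = 0.0186), 0.70 for Mvd (adjusted p = 0.0367), 1.29 for Cyp51 (adjusted p = 0.00606) and 0.68 for Aacs (adjusted p = 0.0233). It was 2.19 for Npc1 (adjusted p = 0.000133), 1.12 for Lipa (adjusted p = 0.0307) and -0.79 for Mylip (adjusted p = 0.0303).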

How the results depend on the processing

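For diet in wild-type mice 10 genes were called, and 17 with the mean of a gene's probe sets. With that mean all 11456 genes tested gave 2483 higher and 2270 lower calls, against 2472 and 1832 of 12078 in the main fit. The 8 calls for genotype on the low fat diet became 5 with only the 2 groups fitted, 4 without arrays with muscle transcripts and 5 at an adjusted p of 0.01. In these 3 settings all genes gave 881 higher and 411 lower calls, 607 and 238, and 717 and 343, against 1410 and 874. The 10 for genotype on the high fat diet became 3 without arrays with muscle transcripts and 6 at 0.01, and the 7 for the difference of diet effects became 2 and 2. For genotype on the high fat diet all genes then gave 497 higher and 317 lower calls, and 521 and 316, against 1036 and 782. For the difference of diet effects they gave 106 and 318, and 171 and 405, against 618 and 951. Leaving out 1 array gave 8 to 11 calls for diet in wild-type mice, 11 to 16 for diet in knockout mice, 6 to 9 and 7 to 11 for genotype on the low and high fat diets, and 3 to 10 for the difference of diet effects. Calls over all genes moved as well. For the difference of diet effects they were 376 higher and 722 lower without replicate 1 of the low fat knockout, and 819 and 1082 without its replicate 4. With the replicate number as a block, diet called 12 genes in wild-type and 16 in knockout mice, genotype 8 on the low and 10 on the high fat diet, and the difference of diet effects 6. In the same order all genes gave 2427 higher and 1761 lower calls, 1829 and 1571, 1339 and 779, 941 and 729, and 511 and 879. Whether the replicate numbers pair arrays is not known. Values that reversed came from dimmer probe sets, chosen after seeing the data: Lss for genotype on the low fat diet (0.70, adjusted p = 0.0307, against -0.10), and Sc5d for diet in knockout mice (0.77, adjusted p = 0.00656, against -0.22) and genotype on the high fat diet (0.60, adjusted p = 0.0475, against -0.05). Fewer arrays were fitted in the muscle alternative; other causes were not tested.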
